A study of Mus musculus with 59 samples.

Results

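The liver transcriptome of wild-type mice at 4 weeks of age was described from 12 arrays of 1 genotype, which make up 12 of the 59 deposited columns of the series. The columns were chosen by their titles, which name wild-type liver at 1 month and the first of the deposited normalizations, and no genotype was compared. The mice were wildtype, and their mixed background came from the strains FVB/NT, 129S1/Svlmj and C57BL/6NT, with no allele or treatment named for them in the labels. RNA extracted from liver with Trizol (5 µg of total RNA) was turned into biotin-labelled cRNA and read on oligonucleotide arrays. The labels give neither sex, nor hour of collection, nor feeding state, and do not say that the arrays came from separate animals, so that every p-value here is set against differences among these samples, part of which may be technical.

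The young liver changes from a growing to a mature organ around weaning. Hepatocytes secrete most plasma proteins, make cholesterol, fatty acids and bile acids, and follow a daily clock in which activators such as BMAL1 drive Dbp and the Rev-erb genes, while Cry1, a repressor of that loop, peaks later. E2F factors act on genes of DNA replication, and growth hormone, acting through STAT5, sets much of the difference between male and female liver and induces feedback genes such as Cish and Socs2.

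The levels in these arrays are log2 values, and each gene was read from the brightest of its probe sets, which gave 18193 genes. Of these, 9095 lay above the median level of 6.93. Replicates 1 and 8 appeared to be the same RNA hybridized again, and so did replicates 2 and 9. Over the genes above the median, the difference of replicate 1 from 2 correlated with that of 8 from 9 (r = 0.53 across genes, which are not independent replicates), while the crossed differences gave r = -0.21. Of 59 genes that differed by more than 0.5 between replicates 1 and 2, 57 differed in the same direction between 8 and 9. The labels do not say so. By the SD of the difference across genes, replicates 8 and 9 (0.145), 1 and 2 (0.151) and 4 and 5 (0.168) were closer. For 1 and 8 and for 2 and 9 it was 0.175. Replicates 1, 2, 8 and 9 also shared higher polyA controls (9.45 to 9.75, against at most 9.125 in the others). Each such pair was averaged and counted as 1 sample, which left 10 samples, and results over all 12 arrays are given where they differ. If they were repeats, the pairs also gave an estimate of technical error, with a median SD within pairs of 0.09 against a median SD over samples of 0.14. Each pair joined arrays of different signal in spiked hybridization controls.

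Array medians lay between 5.91 and 5.99, and spiked hybridization controls between 9.86 and 10.5 in replicates 3 to 12 and at 11.5 and 11.4 in replicates 1 and 2. The 3' minus 5' difference of Gapdh and Actb probe sets, a sign of RNA integrity, ran from 0.48 to 0.65. Xist, the RNA of the inactive X chromosome, stood at 12.42 to 13.13 in replicates 3, 4, 5, 6 and 7 and at 6.60 to 7.13 in the others. The Y-linked translation factor gene Eif2s3y had the opposite pattern, at 2.46 to 3.25 in those replicates and 8.31 to 9.08 in the others. The 10 samples therefore held 5 with Xist signal and 5 with Y-linked signal.

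Promoters are shown for 3 genes of large spread between livers. These were Mcm6 and Mcm5, helicase subunits of the replication machinery, and Cish, a feedback inhibitor of cytokine and growth hormone receptors. Each promoter runs 5' to 3' on the gene's strand across its RefSeq start, with most of the window upstream (GRCm38.p6, sequences from RefSeq). The windows are chr1:128359656-128359955 (- strand) for Mcm6, chr8:75109259-75109558 (+ strand) for Mcm5 and chr9:107296409-107296708 (+ strand) for Cish. Capitals mark matches on either strand to the E2F motif (TTTCGCGC, TTTGGCGC or TTTCCCGC) in the Mcm genes and to the STAT motif TTCNNNGAA in Cish, and matches that overlap run together.
Mcm6: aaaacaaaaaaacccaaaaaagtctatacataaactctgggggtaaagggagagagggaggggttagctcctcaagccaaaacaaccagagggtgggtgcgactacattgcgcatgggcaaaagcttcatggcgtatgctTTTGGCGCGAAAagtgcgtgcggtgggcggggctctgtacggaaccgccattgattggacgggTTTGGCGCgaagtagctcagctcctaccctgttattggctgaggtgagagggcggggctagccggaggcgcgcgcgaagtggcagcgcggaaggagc
Mcm5: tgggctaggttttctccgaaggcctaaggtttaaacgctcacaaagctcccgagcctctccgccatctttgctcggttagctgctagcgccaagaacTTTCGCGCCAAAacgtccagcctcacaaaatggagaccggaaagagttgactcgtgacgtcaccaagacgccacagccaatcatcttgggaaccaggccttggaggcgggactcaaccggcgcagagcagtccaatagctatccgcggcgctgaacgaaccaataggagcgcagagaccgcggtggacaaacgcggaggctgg
Cish: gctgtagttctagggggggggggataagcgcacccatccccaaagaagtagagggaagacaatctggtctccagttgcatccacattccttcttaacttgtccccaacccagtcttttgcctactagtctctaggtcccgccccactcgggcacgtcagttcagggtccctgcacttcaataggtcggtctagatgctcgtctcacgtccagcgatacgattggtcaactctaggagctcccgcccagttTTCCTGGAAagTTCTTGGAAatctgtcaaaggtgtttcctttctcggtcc

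The Mcm6 window held 3 matches, the Mcm5 window 2 and the Cish window 2. Of 40 G1/S and DNA replication genes, 34 had a window, and 14 of these held the E2F motif, against 573 of 27025 genes (2.12%) with any window. Of 26 G2/M and mitosis genes with a window, 1 held it. Of the group of genes that varied together with Cish, 6 had a window, Cish among them, and the STAT motif was found in that of Cish alone, against 9.55% of all genes. A match describes these letters alone.

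The brightest signals belonged to secreted proteins of hepatocytes. Albumin (Alb) led at 14.96 ± 0.03 (SD, n = 10), followed by the lipoprotein genes Apoa2 (14.90 ± 0.03) and Apoa1 (14.79 ± 0.04), the thyroxine carrier gene Ttr (14.79 ± 0.02) and Apoe (14.78 ± 0.04). The protease inhibitor genes Serpina1b and Serpina1c stood at 14.76 ± 0.03 and 14.71 ± 0.04. The next by signal were the fatty acid binding protein gene Fabp1 (14.63 ± 0.05), Ahsg (14.62 ± 0.05), Pzp (14.51 ± 0.05), the heme carrier gene Hpx (14.48 ± 0.03), the selenium carrier gene Selenop (14.46 ± 0.03), Apoc3 (14.43 ± 0.07) and the fibrinogen chain gene Fgg (14.40 ± 0.05). Eef1a1, a translation elongation factor gene, closed the 15 brightest at 14.39 ± 0.02. In all, 46 genes reached 14, 622 reached 12 and 2461 reached 10. Levels of different probe sets are not measured per length or per molecule, so this order is one of signal, not of RNA abundance.

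Markers of liver cell types bore out the tissue label. All 11 measured hepatocyte markers lay above the median, among them the urea cycle gene Cps1 (14.10 ± 0.06), the liver transcription factor gene Hnf4a (12.94 ± 0.09) and Tat (13.26 ± 0.14), and their mean ran only from 13.4 to 13.5 between samples. Of the resident cells, 10 of 10 stellate cell, 10 of 10 sinusoidal endothelial and 10 of 11 Kupffer cell markers lay above the median, and each of these lists varied by an SD of 0.14 over samples. Of cholangiocytes, resident as well, 1 of 7 measured markers lay above the median. So did 0 of 7 neutrophil, 1 of 9 lymphocyte and 0 of 5 skeletal muscle genes. Of the lists of other tissues, 2 of 7 pancreas acinar, 1 of 5 gut epithelium, 1 of 5 erythroid and 1 of 3 adipocyte genes lay above it. The highest of these were Fabp2 of the gut list (11.75) and Cela1 of the pancreas list (11.02). The fetal genes Afp (5.76 ± 0.15) and Igf2 (6.14 ± 0.12) lay below the median. In RNA of whole tissue, fewer cells of a type and less RNA per cell cannot be told apart.

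Genes of large spread were not the brightest ones. The top 5% of genes by SD, 455 of the 9095 above the median, had an SD of at least 0.343, with Hsd17b6 just inside and Dnajb9 just outside (0.34 each). Among these genes the SD within repeat pairs was in the median 0.214 of that over samples, and it exceeded the latter in 7 of them. The threshold takes 5% of all genes by construction. Cell cycle genes filled it most, with 26 of 37 above the median, followed by clock and clock output genes with 14 of 29, lipid genes with 24 of 78 and immune genes with 8 of 52. The cell cycle share rests on genes of modest signal. Among genes above the 75th percentile of level, 2 of 7 cell cycle genes and 8 of 19 clock genes passed. So did 21 of 72 lipid genes and 2 of 30 immune genes. On the MAD in place of the SD, 19 of 37 cell cycle genes and 9 of 29 clock genes passed. So did 24 of 78 lipid genes and 11 of 52 immune genes.

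**Figure D1:**
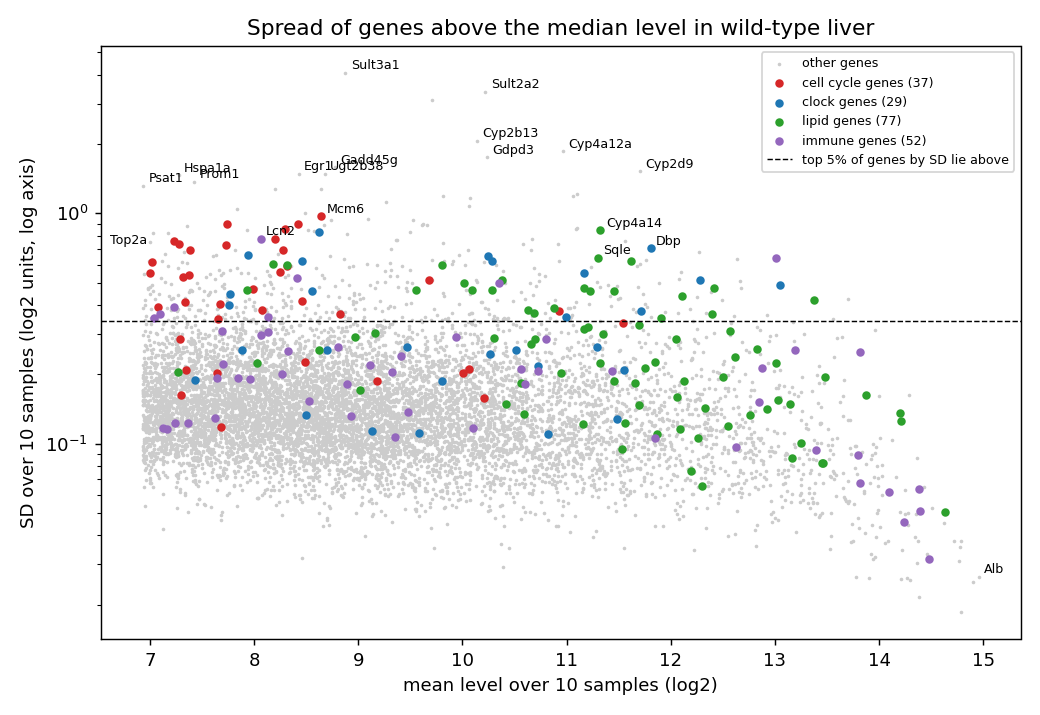
Mean level (x axis, log2) against SD over 10 samples (y axis, log2 units on a log axis) of the 9095 genes above the median level, with cell cycle, clock, lipid and immune genes in colour (a gene of more than 1 family is drawn once) and the 5% limit dashed. Alb sits at the lower right with an SD of 0.03, while Sult3a1 and Sult2a2 lie at the top and most cell cycle genes lie above the dashed line. The unnamed point between them is Xist.

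The widest spread separated the samples with Xist from those with Y-linked signal. Sult3a1, a sulfotransferase gene, had the largest SD of all (4.07), at 11.93 to 12.89 in the 5 Xist samples and 4.29 to 7.47 in the 5 Y-linked samples. The related gene Sult2a2 (SD 3.38) stood at 12.90 to 13.47 and 5.92 to 10.76. The cytochrome P450 genes Cyp2b13 (SD 2.07), Cyp3a44 (1.27) and Cyp2b9 (1.21), the organic anion transporter gene Slc22a26 (1.20) and Prom1 (1.37), which encodes a membrane glycoprotein, were likewise higher in every Xist sample than in any Y-linked one. In the opposite direction, Cyp4a12a, a fatty acid hydroxylase gene, had an SD of 1.86 and stood at 8.48 to 9.94 in the Xist samples and at 12.02 to 12.92 in the others. The P450 gene Cyp2d9 (SD 1.53), the glucuronosyltransferase gene Ugt2b38 (1.49), the steroid reductase gene Hsd3b5 (1.19), Psat1 (1.32), a gene of serine synthesis, and 9130409I23Rik (1.05) were lower in every Xist sample. For Psat1 this held only after averaging. Over the 12 arrays it overlapped, at 7.00 in replicate 2 and 7.06 in replicate 3. Its mean of 6.94 lay just above the median level of 6.93, with replicate 12 at 9.63.

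Of the 25 genes of largest spread, 7 were thus higher and 6 lower without overlap over the 10 samples, Psat1 among the latter. Among the top 5% of genes, Xist left out, 37 of 454 were higher and 35 lower. Over all 9094 genes above the median the shares were 1.62% higher and 1.77% lower. The iron hormone gene Hamp2 (12.95 to 13.78 in Xist samples, 12.05 to 12.90 in the others) and the bile acid enzyme gene Cyp7a1 (12.43 to 12.98 and 11.24 to 12.27) were among the higher ones. Replicate 12, with clear Y-linked signal (Eif2s3y 9.08), had the level nearest to the Xist samples among the Y-linked samples in 9 of the 13 genes without overlap among the 25, such as Sult3a1 (7.47), Sult2a2 (10.76), Cyp2b13 (9.32), Ugt2b38 (8.52) and Hsd3b5 (11.28). Another sample was nearest in Cyp2d9, Prom1, Psat1 and 9130409I23Rik. It had the highest Psat1 of all samples, 9.63, where the next reached 7.77, and the highest Asns, a gene of asparagine synthesis, at 9.45 against at most 7.96. Without replicate 12 the SD of Psat1 was 0.98.

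**Figure D2:**
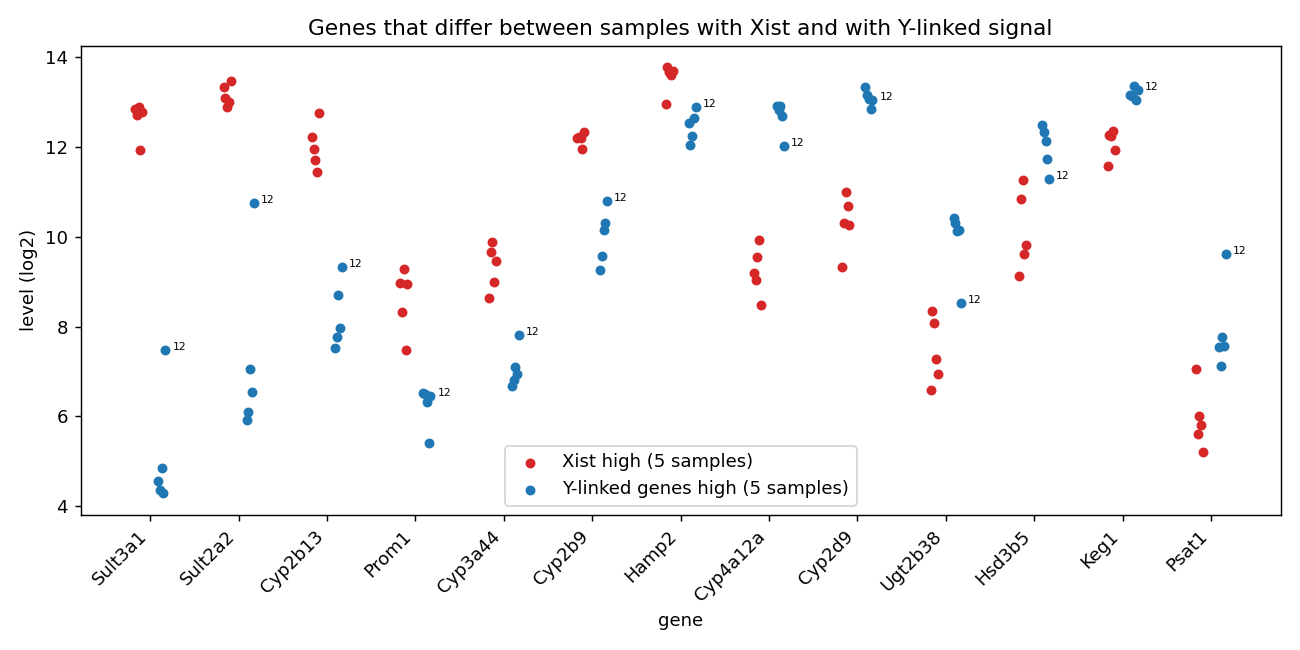
Level (y axis, log2) of 13 genes in 5 samples with high Xist (red) and 5 with high Y-linked genes (blue), 1 point per sample, with replicate 12 marked. The colours do not overlap in any gene shown, and replicate 12 is the blue point nearest to the red ones for Sult3a1, Sult2a2, Cyp2b13, Ugt2b38 and Hsd3b5.

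In the rest of the 25 genes the Xist and Y-linked samples overlapped. For the steroid enzyme gene Hsd3b1 (SD 1.28) and the complement gene C6 (0.94) this was through replicate 12. Hsd3b1 stood at 8.64 to 10.13 in the Xist samples, at 9.68 in replicate 12 and at 6.78 to 7.81 in the other Y-linked samples. C6 stood at 8.10 to 8.82, at 8.26 and at 9.77 to 10.31 in the same samples. Gdpd3, a phospholipid-cleaving enzyme gene, owed its SD of 1.75 to replicate 11, at 5.28 against 10.41 to 11.02 in the other samples, and without it the SD was 0.21. Egr1, an immediate early transcription factor gene, ran from 7.17 to 11.51 with a median of 7.86, and was high in replicates 3 (11.51) and 11 (10.68). The heat shock genes Hspa1a and Hspa1b were lowest in replicate 3 (5.16 and 8.04) and overlapped through replicate 11. Hspa1a stood at 5.16 to 7.37 in the Xist samples, at 6.67 in replicate 11 and at 8.46 to 9.12 in the other Y-linked samples. Hspa1b stood at 8.04 to 10.41, at 9.51 and at 10.77 to 11.86 in the same samples. Gadd45g (SD 1.58), Gdap10 (1.12), Cish (1.08) and Myc (1.00) varied together, as described below with their group. Igfbp1 (1.06), which encodes a fasting-induced binding protein of insulin-like growth factors, and Mcm6 (0.97) completed the 25, and Neat1 (0.94) fell just outside.

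**Figure D3:**
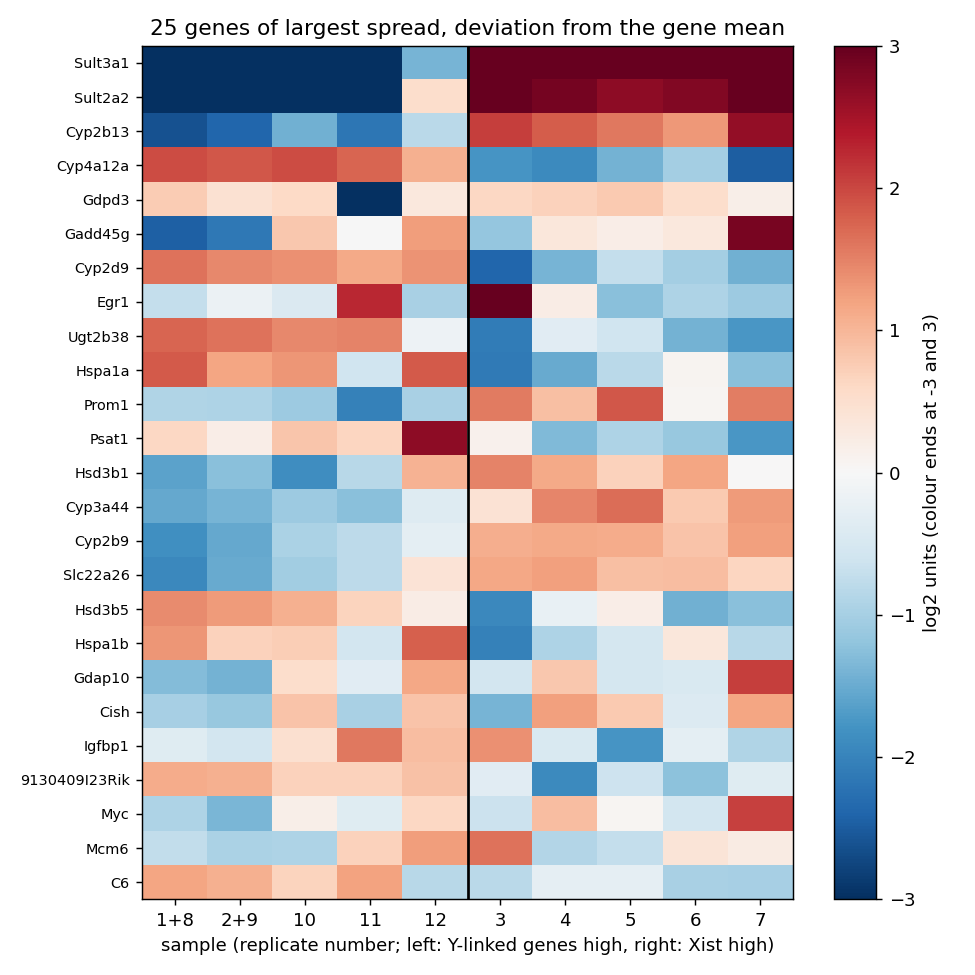
Deviation of each sample from the gene mean (colour, log2 units, ending at -3 and 3) for the 25 genes of largest spread (rows), with the 5 Y-linked samples left and the 5 Xist samples right of the line. Genes such as Sult3a1 and Cyp4a12a change colour at the line, Gdpd3 is blue in replicate 11 alone, and Gadd45g, Gdap10, Cish and Myc share their high samples on both sides of it.

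Genes of the Mcm helicase were high in 5 of the 10 livers. Mcm6 stood at 10.28 in replicate 3, 9.89 in 12, 9.33 in 11, 9.02 in 6 and 8.90 in 7, and at 7.70 to 7.93 in the other samples. Mcm5 followed the same order at its upper end (9.89, 9.60, 9.11, 8.86 and 8.52, against 7.53 to 7.77). The licensing factor gene Cdt1 ran from 7.25 to 9.82 and the nucleotide reductase gene Rrm2 from 6.67 to 8.90, again highest in replicates 3, 11 and 12, but Rrm2 was no higher in replicate 7 (7.18) than in replicates 1 and 8 (7.38). The sliding clamp gene Pcna was highest in replicates 3 (11.62), 12 (11.49), 11 (11.13) and 6 (11.03), and stood at 10.60 to 10.73 elsewhere. The livers of high Mcm6 held both Xist samples (3, 6 and 7) and Y-linked samples (11 and 12). Of the 28 members of the G1/S list above the median, 18 were in the top 5% by SD. The E2F genes on the list varied less than Mcm6, with E2f1 at 6.66 ± 0.33 and E2f2 at 6.70 ± 0.13, below the median of all genes. The atypical member E2f8 stood at 8.08 ± 0.38, an SD above the 5% limit. E2f1 was highest in replicates 3 (7.27), 11 (7.06), 12 (6.94) and 6 (6.71), and stood at 6.25 to 6.56 elsewhere. E2f7 was also highest in those samples (5.44 to 5.72, against 4.91 to 5.28). E2f2 did not follow, at 6.68 in replicate 3 and 6.59 in 12.

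Genes of mitosis were high in a partly different set of livers. Mki67, a marker of cycling cells, reached 8.34 in replicate 3, 8.12 in 10, 7.76 in 12 and 7.74 in 11, and was lowest in replicate 4 (5.88). Cdc20, an activator of the anaphase ligase, stood at 8.33 in replicates 3 and 10, 7.71 in 12, 7.46 in 11 and 5.86 in 4. Replicate 10 thus lay among the high livers for mitosis while its Mcm6 was 7.72. Replicates 6 and 7, with raised Mcm6, had Mki67 at 7.18 and 6.74. Of the 30 measured G2/M genes, 9 lay above the median and 8 of these were in the top 5%. The cut is on the mean over samples, which high samples raise, as in Cdc20 (mean 7.23, lowest 5.86). How far the share of 8 in 9 depends on this cut was not tested.

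To ask which genes varied with a given process, each gene was fitted on the level of a reference gene with limma, and the slope gives its change in log2 units per log2 unit of the reference. Top2a, the topoisomerase of dividing cells (5.37 to 7.58, itself below the median level), served for cell division. At an adjusted p of 0.05, 136 of 18192 genes were tied to it (0.748%), of which 128 rose with it (0.704%) and 8 fell (0.044%). Of 29 G2/M genes, 18 rose with Top2a and 0 fell, and of 38 G1/S genes, 12 rose and 0 fell. The median slope was 0.67 and 0.44 in these lists and -0.01 over all genes. The chromosomal passenger gene Cdca8 led with a slope of 0.72 ± 0.05 (SE, limma adjusted p = 2.28e-05), followed by the checkpoint gene Mad2l1 (0.76 ± 0.06, adjusted p = 4.4e-05 in limma) and the kinase gene Cdk1 (0.81 ± 0.06). Stmn1, a microtubule regulator gene (0.76 ± 0.08), and Ung, which encodes a uracil glycosylase of replicating DNA (0.50 ± 0.05), came next. Cdt1 rose with a slope of 1.01 ± 0.18 (limma adjusted p = 0.021), and Igfbp1 (1.24 ± 0.23) and the glucose-releasing enzyme gene G6pc (0.46 ± 0.07) rose as well, as 2 of 17 fasting and glucocorticoid genes.

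Among the genes that fell with Top2a were H2ac19 (-0.33 ± 0.05), Dct (-1.14 ± 0.18), the antibody transporter gene Pigr (-0.36 ± 0.07), Syt1 (-0.35 ± 0.07) and Igfbp5 (-0.55 ± 0.11), from a limma fit over 10 samples. The count of genes tied to Top2a was 69 without replicate 4, 80 without 12, 81 without 3 and 89 without 5, and 176 without 10. Cdca8, Mad2l1, Cdk1, Stmn1, Ung, Mki67, Ccna2 and G6pc kept their calls in all 21 other settings, and Cdt1 and Igfbp1 in 16 each. With a sex index as a covariate 149 genes rose (0.819%), among them 23 of the G1/S genes and 16 of the G2/M genes. The signal of Top2a depends on the probe set, since the mean of its 3 probe sets had an SD of 0.23 in place of 0.71.

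Genes of cholesterol synthesis varied together. Sqle, the squalene epoxidase gene, lay at 10.36 to 10.52 in replicates 1 and 8, 2 and 9, and 10, and at 11.41 to 12.23 in all others. Idi1, which makes isoprenoid building blocks, stood at 11.48 to 11.66 and 12.05 to 12.81 in the same samples, and Hmgcs1, at the entry of the pathway, at 12.78 to 13.02 and 13.11 to 14.14. The low samples all had Y-linked signal, but replicates 11 and 12, which had it too, were not among them. Of 20 cholesterol genes, 5 were higher in every Xist sample and 0 were lower, against 1.62% and 1.77% of all genes above the median. Hmgcs1 was among the 5, at 13.57 to 14.14 in the Xist samples and 12.78 to 13.34 in the Y-linked samples. Since Sqle fell into separate clusters no correlation over all samples is given for it, and its slopes rest in part on the contrast between the 3 low samples and the rest, with adjusted p-values to be read as such. In the limma fit on Sqle 64 genes passed (0.352%), of which 34 rose (0.187%) and 30 fell (0.165%), and 9 of 19 other cholesterol genes were among those that rose, with 0 that fell. They were led by Nsdhl (slope 0.69 ± 0.07, limma adjusted p = 0.00266), Idi1 (0.66 ± 0.07), Fdps (0.70 ± 0.08) and Msmo1 (0.46 ± 0.06), enzymes of the pathway. Rad51b, a DNA repair gene, rose too (0.78 ± 0.11). Cyp2u1 (-0.78 ± 0.09), Hsd3b5 (-1.68 ± 0.22), Arsa (-0.72 ± 0.10), Cspg5 (-0.85 ± 0.12) and Atp4a (-0.53 ± 0.08) fell.

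The genes tied to Sqle depended on single samples and on the sex index. There were 4 without replicates 1 and 8, 16 without 2 and 9, 8 without 10, 37 without 3 and 102 without 12. With the sex index as a covariate 152 rose (0.836%) and 26 fell (0.143%), of which 16 were called without it. Then 22 of 38 G1/S genes rose with Sqle, where 0 had done so, and 6 of the 19 cholesterol genes. The sets called for Sqle and Top2a shared 0 genes without the index and 77 with it. Nsdhl and Idi1 kept their calls in all 21 other settings, and Fdps and Msmo1 in 20 each.

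Other lipid genes varied along other lines. Cyp4a14, a fatty acid hydroxylase gene driven by PPAR alpha, ran from 9.85 and 10.25 in replicates 4 and 5 to 12.28 and 12.35 in 12 and 3. Vnn1, which encodes a pantetheinase and is another PPAR alpha target, was also lowest in replicates 5 (8.66) and 4 (9.03) and highest in 3 (10.14). In the limma fit on Cyp4a14, 0 genes passed. Of 18192 genes, 1100 had an unadjusted p under 0.05, where chance alone gives 5%. Of 26 other PPAR alpha targets, 24 had slopes above 0 (median 0.08), against 41.3% of all genes (median -0.01). Cell cycle genes had larger slopes on Cyp4a14, above 0 in 35 of 38 G1/S genes (median 0.28) and in 29 of 30 G2/M genes (median 0.40). Of the lipid lists, cholesterol genes had 10 of 20 members above the median in the top 5% by SD, fatty acid synthesis and sugar genes 6 of 21, bile acid genes 4 of 14 and PPAR alpha targets 5 of 24. Pnpla3, a lipid droplet gene, and Fasn, the fatty acid synthase gene, were higher in every Xist sample (8.57 to 8.98 against 7.54 to 8.03, and 11.89 to 12.44 against 11.36 to 11.88).

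Clock genes divided the livers in a way that overlapped in part with the division by Mcm6. Dbp, a transcription factor gene driven by the clock, stood at 10.49 in replicate 11, 10.71 in 6 and 11.32 in 12, and at 12.00 to 12.32 in the other samples. Cry1 was high in the same 3 samples, at 8.02 in replicate 11, 7.68 in 12 and 7.58 in 6, and stood at 6.10 to 6.82 elsewhere. Nr1d1, the Rev-erb alpha gene, was lowest in replicates 12 (6.93), 6 (7.15) and 11 (7.38) and stood at 7.60 to 8.96 in the rest. In the limma fit on Dbp, Cry1 was the only gene of 18192 to pass (0.0055%). Its slope was -0.86 ± 0.10 (limma adjusted p = 0.0158). An unadjusted p under 0.05 was found for 1463 genes, where chance alone gives 5% of genes such a p. The gap in Dbp between its 3 low samples and the others was 37.2% of its range. Slopes on Dbp thus rest in part on this contrast. Cry1 kept its call in 16 of 20 other settings. It lost it without replicates 2 and 9 (adjusted p = 0.053), without 5 (0.065), without 11 (0.067) and with RNA integrity as a covariate (0.062). The number of genes called was 0 in these 3 fits without a sample, 5 without replicate 3, 3 without 12, and 2 without 6 or 10. With the sex index as a covariate 6 genes rose with Dbp (0.033%) and 10 fell (0.055%). Replicates 6, 11 and 12, where Dbp was lowest, were also among the livers of high Mcm6. Without the index, 2 of 38 G1/S genes had slopes on Dbp above 0 (median -0.30), with 0 called. The same held for 1 of 17 glucocorticoid and fasting genes (median -0.36), also with 0 called. Over all genes 55.6% of slopes on Dbp were above 0 (median 0.01).

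For Arntl, the BMAL1 gene, the probe sets disagreed. The brighter (6.69 ± 0.16) had r = -0.04 with Dbp. The dimmer (6.13 ± 0.44) stood at 7.11 in replicate 11, 6.54 in 6 and 6.42 in 12 and at 5.72 to 6.04 in the other arrays, with r = -0.93, which is given as a description since it was chosen after its values were seen. Outputs of the clock did not share 1 order. Tfrc, the transferrin receptor gene, was lowest in replicates 3 (8.75) and 4 (9.42), Alas1, the first gene of heme synthesis, in 11 (12.18) and 3 (12.22), and Noct, the nocturnin gene, in 11 (9.24) and 3 (9.65). Of the output genes, 12 of 19 were in the top 5% by SD, and of the core clock 2 of 10, Nr1d1 (SD 0.66) and Per2 (0.46). Cry1 (6.87 ± 0.65) lay below the median level of all genes and was not counted among them.

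**Figure D4:**
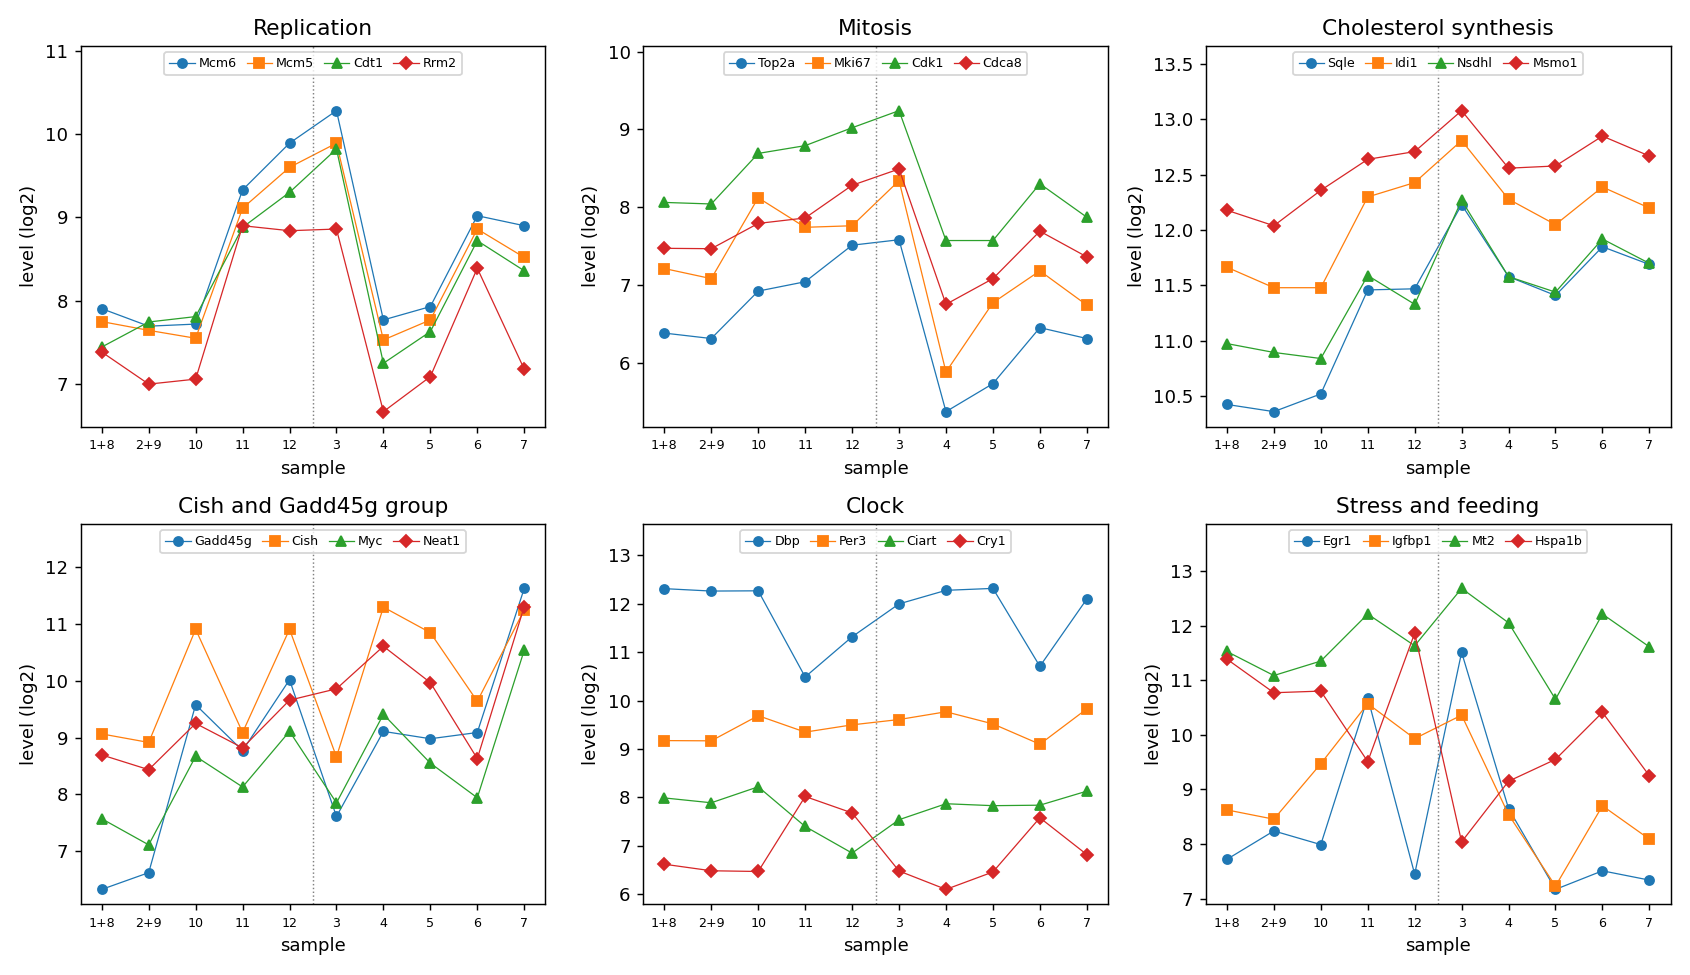
Level (y axis, log2) of 4 genes in each of 6 processes, by sample (x axis, 5 Y-linked samples left and 5 Xist samples right of the dotted line). Lines join the values of a gene and imply no order of samples. Mcm5, Mcm6 and Cdt1 peak in replicate 3, mitosis genes are high also in 10, Cry1 is high where Dbp is low (replicates 6, 11 and 12), and Sqle is low in the 3 leftmost samples.

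Genes that varied with Cish and Gadd45g formed a group of their own. Among the 100 genes of largest SD, 71 fell into 5 groups by average linkage at a distance of 0.4 on 1 - r, chosen on these samples and so without a test. The group held 10 genes (mean r between members 0.77, against 0.71 to 0.81 in the other groups). The distance cut itself keeps the mean r of any group high. Gadd45g, a growth arrest gene, ran from 6.32 to 11.63, Cish stood at 10.85 to 11.30 in replicates 4, 5, 7, 10 and 12 and at 8.66 to 9.64 in the others, and Myc was highest in 7 (10.54) and 4 (9.41). The nuclear RNA Neat1, Gdap10, Phlda1, Foxq1, Slc25a30, the DNA demethylase gene Tet2 and the phosphatase gene Dusp1 were the other members. The high livers again held Xist samples (4, 5 and 7) and Y-linked ones (10 and 12). Replicate 7, with the highest Gadd45g, also had the highest skeletal muscle markers, a mean of 6.45 over 5 genes against 5.36 to 5.55 in the other samples, led by Acta1 (8.55 against 5.53 to 6.05). None of these markers lay above the median on average, and without replicate 7 the SD of Gadd45g was 1.30. The part of muscle RNA in the group was not tested.

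The remaining groups were a set of 21 genes led by Sult3a1, Sult2a2 and Cyp2b13, of which 17 were higher in every Xist sample, and a set of 15 led by Cyp4a12a and Cyp2d9, of which 11 were lower in every Xist sample. A set of 16 held Mcm2 to Mcm6, Cdt1, Rrm2, Mki67, Cdc20 and Ccna2 beside Igfbp1 and Acot1, and a set of 9 held Dct, Nnmt, Serpina12, Lcn2, Ntrk2 and Ugt2b37, with its lowest Dct (6.89), Nnmt (7.85) and Lcn2 (6.68) in replicate 12. With the fit of the sex index removed, the 100 genes of largest remaining SD were taken anew, of which 73 were among the first 100, and 79 fell into 10 groups. A set of 25 joined the Mcm genes to Cyp4a14, Pctp, Cdk1 and Stmn1, the set with Cish held 14 genes, and Socs2 stood in a set of 4 with Onecut1, Chac1 and Arid5b.

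Stress and fasting genes were among the widest of the other lists. Of 16 glucocorticoid and fasting genes above the median, 11 were in the top 5%, and of 13 heat shock genes 5 were. Igfbp1 reached 10.57 in replicate 11, 10.36 in 3 and 9.93 in 12 and was lowest in 5 (7.23). The metallothionein gene Mt2 was highest in 3 (12.68) and lowest in 5 (10.65). Zbtb16, a glucocorticoid-induced gene, was highest in 11 (9.96) and lowest in 10 (6.92).

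Immune genes varied least of the 4 families. Lcn2, an iron-scavenging acute phase gene, was higher in every Xist sample (8.50 to 8.84) than in any other (6.68 to 8.19), with a mean of the 7 neutrophil markers of 5.52 to 5.88 and 5.29 to 5.74 in the same samples, whose part in Lcn2 was not tested. Saa1, a serum amyloid gene, was highest in replicates 2 and 9 (11.34). In the limma fits on Lcn2 and on Ifit1, an interferon-induced gene (6.43 to 7.79), 0 genes passed. Of 18192 genes, 1299 and 1881 had an unadjusted p under 0.05, where chance alone gives 5%. Lcn2 also lay in separate clusters by the Xist division, on which its slopes rest in part. On Lcn2, leaving out 1 sample gave 4 genes without replicates 1 and 8, 18 without 2 and 9, 1 without 11 and 2 without 12. On Ifit1 it gave 1 without 3 and 1 without 10. Of 21 interferon-stimulated genes above the median 2 were in the top 5%, Ifit1 and Cxcl10, of 5 MHC class II genes 0, and of 26 acute phase genes 6.

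Listed gene pairs were correlated over the 10 samples. Of 38 pairs 34 could be read, 11 had a gene whose samples fell into separate clusters and get no pooled correlation, and 8 of the other 23 passed a permutation test at an adjusted p of 0.05 over 34 pairs. Mcm5 and Mcm6 had r = 0.997 (permutation p = 2e-05, adjusted p = 0.00068) and rho = 0.95. Top2a and Mki67 had r = 0.93 (permutation p = 0.00028, adjusted p = 0.0048) and rho = 0.93. Cyp4a14 and Vnn1 had r = 0.88 (permutation p = 0.0015, adjusted p = 0.0091) and rho = 0.90. Hspa1b and Dnajb1, heat shock genes, had r = 0.86 (permutation p = 0.0016, adjusted p = 0.0091) and rho = 0.87. The metallothionein genes Mt1 and Mt2 had r = 0.81 (permutation p = 0.0053, adjusted p = 0.022) and rho = 0.76. Without the samples farthest from the median of the first gene these values were 0.99, 0.93, 0.84, 0.67 and 0.81. Hspa1b with Dnajb1 lost its call without replicate 3 (r = 0.77, adjusted permutation p = 0.056), and Mt1 with Mt2 without replicate 11 (r = 0.79, adjusted permutation p = 0.052).

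The other 3 pairs rested on few samples. The MHC class II genes Cd74 and H2-Aa had r = 0.84 (permutation p = 0.0032, adjusted p = 0.015), and 0.55 without replicates 6 and 7. It lost its call without replicate 6 (r = 0.70), 7 (0.82) or 11 (0.84). Top2a and Mcm6 had r = 0.76 (permutation p = 0.012, adjusted p = 0.040), and 0.45 without replicates 3 and 12. It kept its call only without replicate 10 (r = 0.89) and lost it without any other single sample (r = 0.67 to 0.78). Dbp and the related factor gene Tef had r = 0.70 (permutation p = 0.011, adjusted p = 0.040), and 0.36 without replicates 6 and 11. It kept its call without replicates 1 and 8, 2 and 9, or 7, and lost it without any other single sample (r = 0.60 to 0.70). The rho of these 3 pairs was 0.71 (permutation p = 0.027), 0.68 (0.036) and 0.63 (0.057), with adjusted p of 0.091, 0.10 and 0.14. In the pairs that passed, the permutation p of rho was 6e-05 for Mcm5, 0.00038 for Mki67, 0.00088 for Vnn1, 0.0022 for Dnajb1 and 0.013 for Mt2, with adjusted p of 0.002, 0.0065, 0.01, 0.019 and 0.054. Dbp did not pass with Per3 (r = 0.40), Nr1d2 (0.72, adjusted permutation p = 0.13), Cyp4a14 (-0.19) or Top2a (-0.42), and Ifit1 did not with Ifit3 (0.69, adjusted permutation p = 0.072). Cdkn1a, a cell cycle inhibitor gene, had r = 0.69 with Top2a (adjusted permutation p = 0.077).

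**Figure D5:**
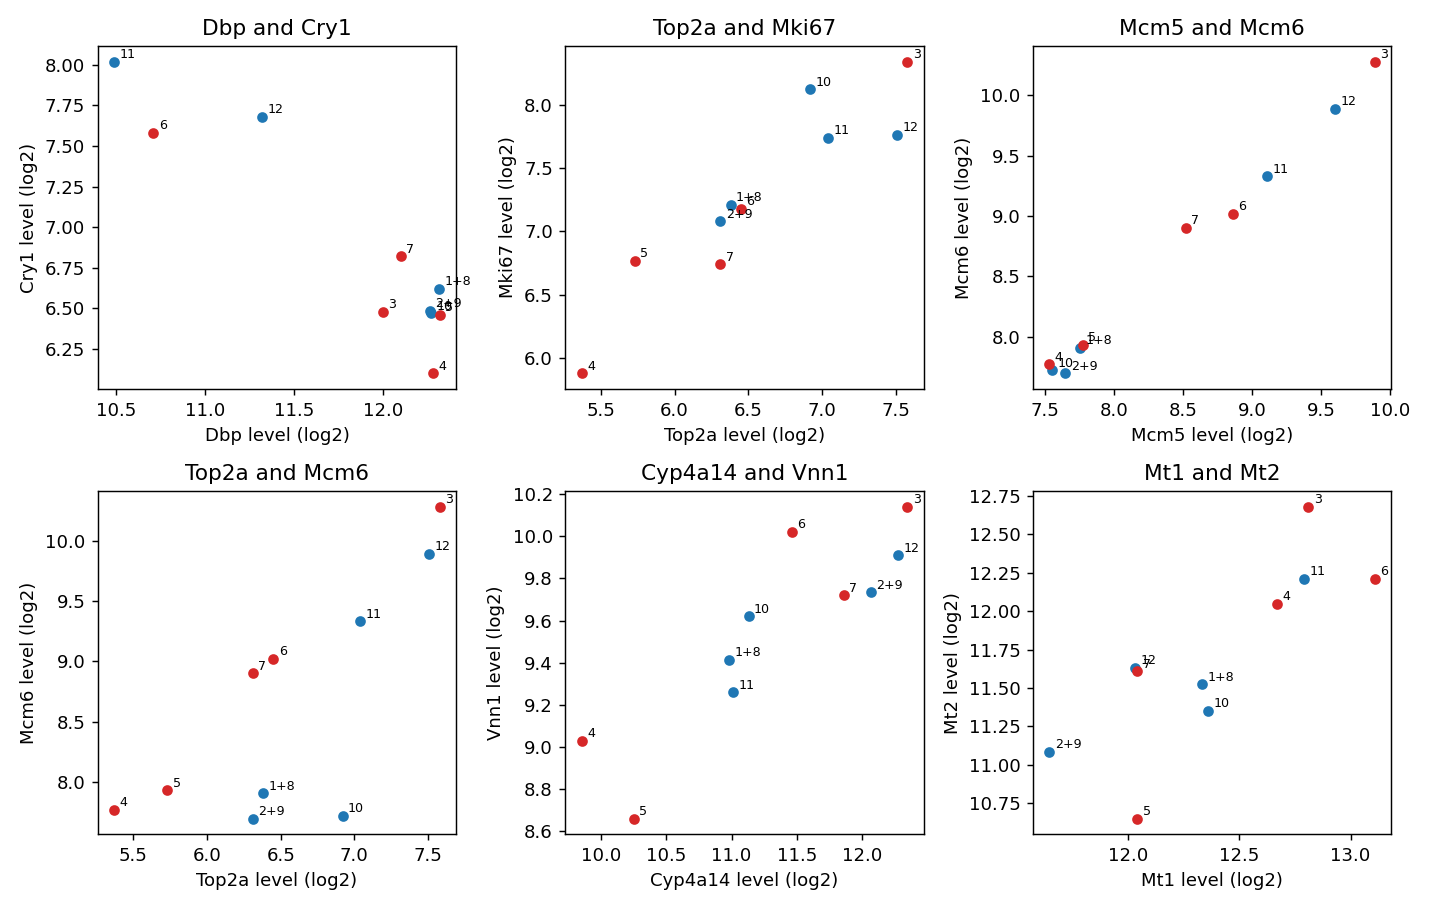
Levels (log2) of 6 gene pairs, 1 point per sample, red for Xist and blue for Y-linked samples, with replicate numbers. Mcm5 and Mcm6 lie close to a line, Cry1 is high where Dbp is low (replicates 6, 11 and 12), and replicate 10 lies low in Mcm6 for its Top2a.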

How the data were processed

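The authors deposited log2 values that they had normalized between arrays. Neither label nor header names the method, and that the scale is log2 was judged from the range of the values (2.13 to 15.06). Only the 34945 probe sets with a single symbol were used, which left out 932 with several, 9160 without any and 64 controls. The fits were planned over 12 arrays, and averaging the repeat arrays (10 samples) was decided after seeing the values. Slopes came from limma (version 3.58.1, R 4.3.3, eBayes with no trend), adjusted by Benjamini-Hochberg at 0.05. Permutation tests were 2-sided with 100000 resamples. A gene was taken as lying in separate clusters where a gap of over 40% of its range left at least 3 samples on each side. The same held where Xist and Y-linked samples did not overlap. This rule was set after the values were seen. The gap was 37.2% in Dbp and 37.5% in Mcm6, just under the limit, so their pooled correlations are given. The sex index was computed from Xist and Y-linked genes.

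The members and the 28 gene lists were chosen with earlier results of these data known. Named genes were the 6 reference genes, genes of the pairs, the 15 brightest, the 25 of largest SD, up to 5 tied genes with the smallest p in each direction, and members of the lists and groups, and others were named after their values were seen. Each fit was tested on simulated data (18193 genes, 200 changed, 5 simulations). Of slopes of 0.5, 87.6% were recovered for Dbp, 89.2% for Top2a, 94.2% for Cyp4a14, 86.4% for Sqle, 92.8% for Lcn2 and 41.0% for Ifit1. The changed genes were drawn at random from all genes, and the simulated noise was independent between genes. The genes of large spread described here are noisier and vary together, so these rates do not give the power for them. The number of arrays limits the precision.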

Additional observations from a re-analysis of the deposited data

Results flagged for a closer look

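Of 32 genes checked for a single sample far from the rest, 1 had one. Gdpd3 stood at 5.28 in replicate 11, and its next lowest level was 10.41. Chance alone sets about 1 in 20 such groups apart where genes are picked without regard to spread. Most of the genes checked, Gdpd3 among them, were picked for a large SD on these same samples. A single far sample itself raises the SD, so this rate does not apply to them and no chance rate is given. Without replicate 11 the SD of Gdpd3 was 0.21 in place of 1.75, and the gene was read from 1 probe set.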

How the results depend on the processing

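Where a count, a call or a direction moved, the cause was not tested. Counts of genes and SDs have no direction. Of the gene pairs, 8 changed sign in at least 1 setting, and 0 of them had passed the test, nor did any of the 15 values of changed sign pass it. The number of genes tied to Dbp was 1 and became 16 with all 12 arrays counted singly, 2 with the second normalization, 5 with a further quantile normalization, 5 among genes above the median level, 2 with a trend, 16 with the sex index and 0 with RNA integrity as a covariate. The number of genes tied to Top2a was 136 and became 45 among genes above the median level, where fewer genes were tested. The number of genes tied to Sqle was 64 and became 373 over 12 arrays and 178 with the sex index. Of 29 clock genes, 14 had large spread, against 9 on the MAD and 8 of 19 above the 75th percentile of level. Of 37 cell cycle genes, 26 did, against 19 on the MAD and 2 of 7 above that percentile. Of 52 immune genes, 8 did, against 14 in the top 10%, 11 on the MAD and 2 of 30 above that percentile. Leaving out 1 sample at a time gave 0 to 5 genes tied to Dbp, 69 to 176 to Top2a, 0 to Cyp4a14, 4 to 102 to Sqle, 0 to 18 to Lcn2 and 0 to 1 to Ifit1, and 12 to 15 clock, 23 to 28 cell cycle, 21 to 26 lipid and 7 to 8 immune genes of large spread. Of the 25 genes of largest SD, 15 stayed with the fit of the sex index removed, 18 on the MAD and 13 above the 75th percentile. Dbp with Arntl became r = 0.034 with quantile normalization, and with the sex index removed Lcn2 with Saa1 became 0.72 (adjusted permutation p = 0.055) and Cdkn1a with Lcn2 0.25. Leaving out 1 sample gave r of -0.18 to 0.060 for Dbp with Arntl, -0.021 to 0.45 for Cyp4a14 with Pdk4, -0.32 to 0.29 for Scd1 with Fasn, -0.36 to 0.35 for Scd1 with Elovl6, -0.22 to 0.058 for Cdkn1a with Lcn2, -0.13 to 0.34 for Cyp4a14 with Sqle and -0.22 to 0.44 for Cyp4a14 with Scd1. Of the pairs that had passed, Top2a with Mcm6 lost its call in 9 of 10 such fits, Dbp with Tef in 7, Cd74 with H2-Aa in 3, and Mt1 with Mt2 and Hspa1b with Dnajb1 in 1 each. Without replicate 12 Dbp with Nr1d2 (0.91) and Clec4f with Vsig4 (0.79) passed. Over 12 arrays Dbp with Tef (0.61) and Cd74 with H2-Aa (0.66) no longer passed, nor did Dbp with Tef on the mean of probe sets (0.44). Dbp with Arntl (-0.92) and Cdkn1a with Top2a (0.75) passed on that mean, Ifit1 with Ifit3 on the arrays of lower hybridization control (0.75) and with quantile normalization (0.72), and Ifit1 with Irf7 with the sex index removed (0.87, adjusted permutation p = 0.0078). No paired analysis was possible because only 1 group was described. The counts over 12 arrays, and the groups with the sex index removed, were chosen after seeing the data.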

Other observations

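Some genes stood out in single livers, and were chosen for that. The collagen gene Col1a1 stood at 9.84 in the sample of replicates 2 and 9 and at 7.62 to 8.80 in the others, and Col3a1 was highest there too (12.58, against at most 12.15). Acta2, the smooth muscle actin gene, was highest in replicate 7, at 8.17 against 6.74 to 7.24. Ass1, the gene of argininosuccinate synthase, was also highest in replicate 7, at 8.83 against 7.24 to 7.99, while the urea cycle gene Cps1 ran only from 13.99 to 14.21. Rgs16, a regulator of G protein signalling, was highest in replicates 3 (9.78) and 11 (9.13), the samples with the highest Egr1, and at most 8.73 in the others.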
